A study of Rattus norvegicus with 6 samples.

Results

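Bone morphogenetic proteins (BMPs), their receptors and their antagonists were followed in skeletal muscle of newborn rats of lower birth weight (LBW) and average birth weight (ABW). Of the 10 genes chosen by name, 7 had a row on the array whose RefSeq accession maps to the symbol in the rat gene table, among 26299 features tested in all. These were the ligands *Bmp2* (NM_017178), *Bmp3* (NM_017105), *Bmp4* (NM_012827) and *Bmp6* (NM_013107), the receptors *Bmpr1a* (NM_030849) and *Bmpr1b* (NM_001024259), and the antagonist *Grem1* (NM_019282), each with 1 row. No row was matched to *Bmp7*, *Bmpr2* or *Nog*, which were not analysed here.

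The samples were 3 LBW and 3 ABW pups, all male Wistar rats aged 1 day, given no treatment and grouped only by weight at birth. LBW pups were in percentiles 5 to 25. ABW pups were in percentiles 50 to 75 by the treatment protocol, while the sample characteristics give 25 to 75. Soleus and gastrocnemius were collected as 1 sample per pup, the RNA of each pup was hybridized to 1 single-colour NimbleGen array, and the litters of the 6 pups are not given in the sources used here, so p-values measure only the spread between these pups. As the muscle was analysed as bulk RNA, a change in the number of cells of a type and a change in RNA per cell cannot be told apart.

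BMPs are secreted ligands that were named for their ability to induce bone. A ligand dimer brings together type II receptors, such as Bmpr2, and type I receptors, such as Bmpr1a and Bmpr1b. The type I receptors then phosphorylate Smad1, Smad5 and Smad9. These Smads enter the nucleus with Smad4 and switch on target genes such as the *Id* genes. Extracellular antagonists, such as noggin and gremlin, bind the ligands and keep them from the receptors. In muscle, BMP signaling is known to support the growth of fibers and the pool of satellite cells, and in muscle exposed to excess BMP, bone can form. The question for these arrays is whether ligands or antagonists moved together with the bone genes that were higher in LBW pups.

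The proximal promoters of 2 BMP genes that did not pass the threshold and of 1 bone gene that did are shown as examples of regulatory sequence. They are from RefSeq (GRCr8, 250 bases before to 50 bases after the start, minus strand, written 5′ to 3′), at chr15:22101884-22102183 for *Bmp4*, chr3:120978270-120978569 for *Grem1* and chr2:176137269-176137568 for *Bglap*, which encodes osteocalcin, a matrix protein made by osteoblasts. Capitals mark a core RUNX motif, TGTGGT or its reverse complement ACCACA, or the GC-rich motif GGCGCC, which Smad1 and Smad5 can bind, searched on both strands.
Bmp4: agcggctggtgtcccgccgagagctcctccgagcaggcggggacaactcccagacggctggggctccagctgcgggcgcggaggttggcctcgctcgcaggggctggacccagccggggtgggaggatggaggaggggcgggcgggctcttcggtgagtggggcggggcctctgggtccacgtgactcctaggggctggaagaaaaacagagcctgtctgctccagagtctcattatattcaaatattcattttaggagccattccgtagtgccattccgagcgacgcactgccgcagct
Grem1: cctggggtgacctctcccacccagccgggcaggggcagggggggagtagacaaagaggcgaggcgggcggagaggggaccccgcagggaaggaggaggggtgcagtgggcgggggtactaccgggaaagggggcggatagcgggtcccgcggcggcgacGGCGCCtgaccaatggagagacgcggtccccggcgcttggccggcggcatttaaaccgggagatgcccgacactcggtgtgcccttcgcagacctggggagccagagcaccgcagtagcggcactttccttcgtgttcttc
Bglap: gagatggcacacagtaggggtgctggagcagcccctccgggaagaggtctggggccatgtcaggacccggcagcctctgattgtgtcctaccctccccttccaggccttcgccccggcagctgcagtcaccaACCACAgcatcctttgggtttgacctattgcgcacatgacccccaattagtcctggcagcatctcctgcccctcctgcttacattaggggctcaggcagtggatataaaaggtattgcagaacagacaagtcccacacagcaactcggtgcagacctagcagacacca
The *Bglap* promoter holds ACCACA, beginning 118 bases before the start. The *Grem1* promoter holds GGCGCC, beginning 91 bases before the start, and the *Bmp4* promoter holds neither. The core RUNX motif was found in 17.3% and the GC-rich motif in 11% of 33469 promoters of this length. Promoters were given for 5 of the 7 BMP genes, and 0 of these held the RUNX motif and 1 held the GC-rich motif. Of the 15 bone genes with a row, 10 had a promoter, of which 4 held the RUNX motif and 1 the GC-rich motif. The 4 were *Bglap* and *Runx2*, which were called, and *Mepe* and *Sparc*, which were not. The called bone genes *Spp1*, *Ibsp* and *Alpl* had a promoter without the RUNX motif. A link between the motif and the call was not tested. *Runx2* had 2 promoters, of which 1 held the motif, whereas the shares of all promoters count each promoter. A match is a description of the letters in this window only. No promoter was given for *Bmp2* and *Bmpr1b*.

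The values are normalized log2 signals, which the authors deposited as 1 value for each transcript and pup. A difference of 1 is therefore a 2-fold change. The brightness of one gene's probes cannot be set against that of another, so only differences between pups are compared. Each feature was tested with limma, and a feature was called at a p under 0.05 with a fold change of at least 1.5 (0.58 on the log2 scale). The study used these limits without stating whether its p was adjusted, and here the p was not adjusted. Over all features, 1124 (4.27%) were called, 627 higher and 497 lower in LBW pups, and 3250 (12.4%) had an unadjusted p under 0.05. After Benjamini-Hochberg adjustment over all features 0 passed by limma, with 0.214 as the smallest adjusted p, and 0 by the methods' test, a 2-sided test of each feature on its own, which gave 2501 (9.51%) at an unadjusted p under 0.05. The 7 skeletal muscle markers with a row (of 12 listed) differed little, with log2 fold changes between -0.13 and 0.25 and 0 called.

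None of the 7 BMP genes was called, whereas 8 of 15 bone genes with a row were called and all 8 were higher in LBW pups, against 4.27% of all features (2.38% higher and 1.89% lower). Means were higher in LBW pups for 6 of the 7 BMP genes, against 44.4% of all features, and the groups did not overlap for 2 of the 7, against 17.4%. The log2 fold changes of the BMP genes ran from -0.21 to 0.34 with a median of 0.18, while those of the bone genes ran from -0.28 to 5.02 with a median of 1.58 and the median over all features was -0.02. By limma, 1 BMP gene, *Bmpr1b*, had an unadjusted p under 0.05, as by the methods' test. The study named 6 of the called bone genes in the tables of its strongest changes, chosen on these same samples, so their direction is not independent evidence. Of the 9 other bone genes with a row, 2 were called, and these were measured in the same samples. By qRT-PCR on the same RNA, the study also reported *Spp1*, *Ibsp* and *Bglap* as higher in LBW pups. The complete gene lists of the study were not used here.

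Bmp2 is a strong inducer of osteoblast differentiation. *Bmp2* gave signals of 8.85, 7.92 and 8.69 in LBW pups 1, 2 and 3 against 8.37, 7.96 and 8.40 in ABW pups 1, 2 and 3. LBW 1 and LBW 3 lay above all ABW pups, but LBW 2 was the lowest of the 6, so that the groups overlapped. LBW pups averaged 8.49 ± 0.50 and ABW pups 8.24 ± 0.25 (SD, n = 3 each), a log2 fold change of 0.24 (SE 0.26, 95% interval -0.39 to 0.87, adjusted p = 0.749 by limma). The spread among the LBW pups was larger than this difference. In terms of fold, the interval reached from 0.765 to 1.83, so that a 1.5-fold rise would not have been told from no change.

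Bmp6 is closely related in sequence to Bmp7 and is also an osteogenic ligand, which in addition regulates hepcidin in the liver. *Bmp6* gave signals of 9.78, 9.43 and 9.98 in LBW pups 1, 2 and 3 against 9.28, 9.31 and 9.81 in ABW pups 1, 2 and 3. The groups overlapped through ABW 3, which lay above LBW 1 and LBW 2. The log2 fold change was 0.26 (SE 0.20, 95% interval -0.22 to 0.74, adjusted p = 0.641 by limma), no larger than the SD within either group (0.28 in LBW and 0.30 in ABW, n = 3 each).

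Bmp3 is an atypical member that opposes osteogenic BMPs and is known as a negative regulator of bone mass. *Bmp3* gave signals of 9.47, 8.97 and 9.74 in LBW pups 1, 2 and 3 against 9.05, 9.66 and 9.33 in ABW pups 1, 2 and 3. The LBW and ABW values covered nearly the same range. The log2 fold change was 0.04 (SE 0.24, 95% interval -0.52 to 0.61, adjusted p = 0.956 by limma).

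Bmp4, the ligand nearest to Bmp2 in sequence, acts in mesoderm formation and limb development. *Bmp4* gave signals of 11.55, 11.34 and 11.54 in LBW pups 1, 2 and 3 against 11.80, 11.60 and 11.64 in ABW pups 1, 2 and 3. Every LBW pup lay below every ABW pup, but LBW 1 and ABW 2 were closer to each other than the SD within either group (0.12 in LBW and 0.10 in ABW, n = 3 each). The log2 fold change was -0.21 (SE 0.10, limma with adjusted p = 0.469; 2-sided exact permutation p = 0.1, which is the lowest value possible with 3 pups in each group). Its interval, from 0.730-fold to 1.03-fold, did not reach 1.5-fold in either direction. Of all features, 10.1% had LBW values entirely below the ABW values.

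**Figure D1:**
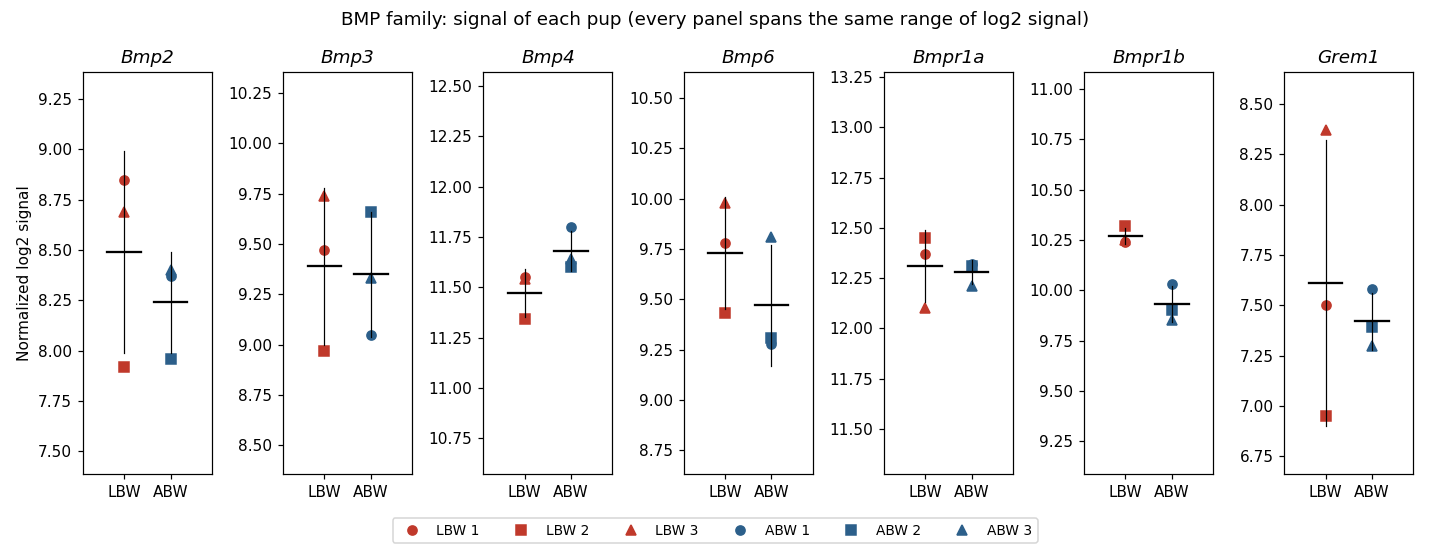
Normalized log2 signal (vertical axis) of the 7 BMP genes in the 3 LBW and 3 ABW pups, with 1 panel per gene, all panels spanning the same range. Points are pups, horizontal bars are group means and vertical bars are ± SD (n = 3). The LBW and ABW points are apart for *Bmp4*, where LBW lies lower, and for *Bmpr1b*, where LBW lies higher, and overlap for the other genes; LBW 2 (square) is the lowest LBW point in 5 of the 7 panels.

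Of the receptors, *Bmpr1a* is broadly expressed and *Bmpr1b* is known for its part in cartilage condensation and in the ovary. *Bmpr1b* gave signals of 10.24, 10.32 and 10.25 in LBW pups 1, 2 and 3 against 10.03, 9.90 and 9.85 in ABW pups 1, 2 and 3. All LBW pups lay above all ABW pups, and the gap between LBW 1 and ABW 1 was wider than the SD within either group (0.04 in LBW and 0.09 in ABW, n = 3 each). The log2 fold change was 0.34 (SE 0.09, 95% interval 0.13 to 0.55), a fold change of 1.27, with an unadjusted p of 0.00681 and an adjusted p of 0.277 by limma. The 2-sided exact permutation p was 0.1, the lowest possible here. *Bmpr1b* thus had the smallest p of the 7 genes and missed the call on its size, and 7.27% of all features had LBW values entirely above the ABW values. LBW 2, the LBW pup in which the bone genes were lowest, had the highest *Bmpr1b* by a small margin. The LBW pups differed little in *Bmpr1b* (SD 0.04), so their order is a description only.

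*Bmpr1a* gave signals of 12.37, 12.45 and 12.10 in LBW pups 1, 2 and 3 against 12.32, 12.31 and 12.21 in ABW pups 1, 2 and 3. The ABW pups lay within the LBW range. The log2 fold change was 0.03 (SE 0.11, 95% interval -0.25 to 0.30, adjusted p = 0.945 by limma), and in fold the interval ended at 1.23.

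Over the 6 arrays, the named genes whose pattern was most like that of *Bmpr1b*, which had the largest absolute log2 fold change of the 7, were *Atf6b* (Pearson r = 0.9933), *Mylk2* (0.99) and *Bag3* (0.9892) of 9630 other symbols. With so many symbols and 6 arrays such values are a description only.

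Gremlin 1, the antagonist with a row, binds Bmp2 and Bmp4. *Grem1* gave signals of 7.50, 6.95 and 8.37 in LBW pups 1, 2 and 3 against 7.58, 7.39 and 7.30 in ABW pups 1, 2 and 3. LBW 3 was the highest and LBW 2 the lowest of the 6 pups, while LBW 1 was within the ABW range. The SD was 0.71 in LBW and 0.14 in ABW pups (n = 3 each), and the log2 fold change was 0.18 (SE 0.34, 95% interval -0.63 to 0.99, adjusted p = 0.866 by limma). This was the widest interval of the 7 genes, reaching from 0.646-fold to 1.99-fold, and the sign turned without LBW 3, where the log2 fold change was -0.20.

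The bone genes set the pattern with which the BMP genes were compared pup by pup. The mean of the 15 bone genes, relative to the ABW mean, came to 2.34, 0.34 and 3.08 in LBW pups 1, 2 and 3, while the ABW pups lay between -0.09 and 0.14. The bone genes that moved most were *Spp1* (osteopontin; log2 fold change 5.02, SE 1.05, unadjusted p = 0.00248 by limma), *Ibsp* (bone sialoprotein; 4.73), *Bglap* (3.60) and *Panx3* (a channel of osteoblasts and chondrocytes; 3.20). LBW 2 was the lowest of the LBW pups for 14 of the 15 bone genes, against 29.2% of all features.

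The same pup was the lowest of the LBW pups for 5 of the 7 BMP genes, namely the ligands *Bmp2*, *Bmp3*, *Bmp4* and *Bmp6* and the antagonist *Grem1*. For both receptors it was the highest of the LBW pups, by small margins. Relative to the ABW mean of each gene, the mean of the 4 ligands was -0.27 in LBW 2 and 0.30 in LBW 3. *Grem1* differed from its ABW mean by 0.08, -0.47 and 0.94 in LBW pups 1, 2 and 3. The sizes were far apart. *Bmp2* was 0.61 above its ABW mean in LBW 1 and 0.44 above it in LBW 3, whereas *Spp1* was 5.71 and 6.91 above. With the LBW pups differing among themselves in this way, no correlation of BMP genes with bone genes over the pups is given.

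**Figure D2:**
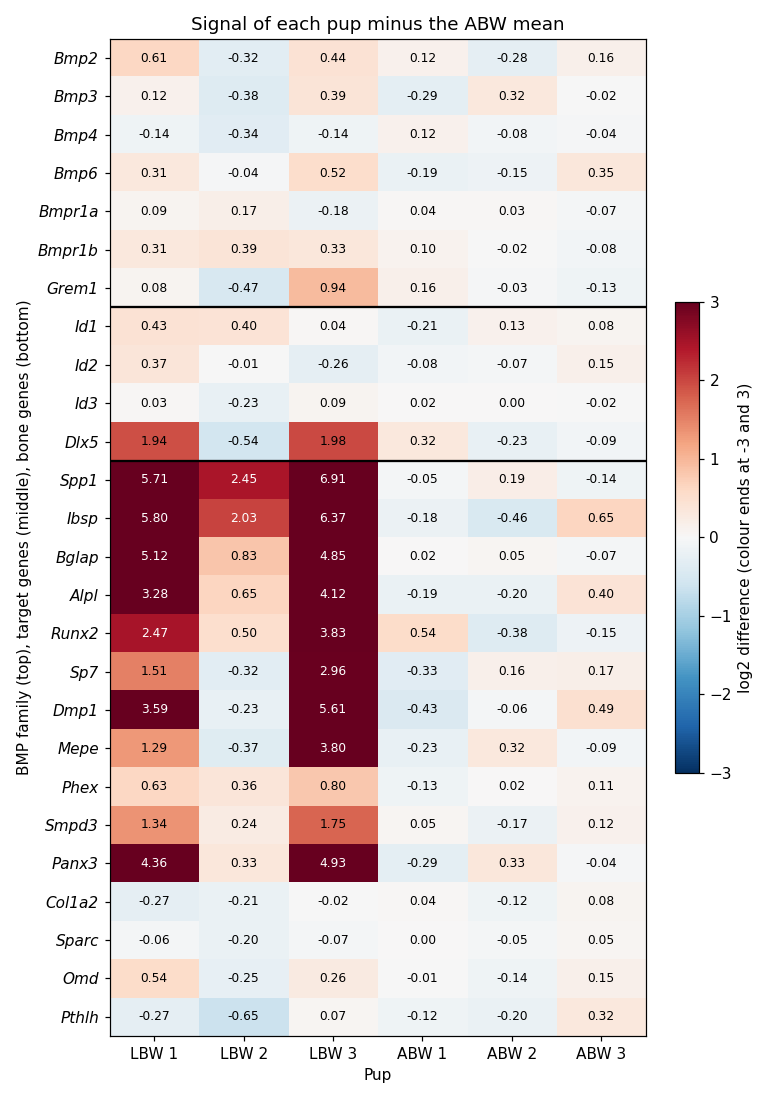
Log2 signal of each pup (columns) minus the ABW mean of the gene, for the 7 BMP genes (top), 4 BMP target genes (middle) and 15 bone genes (bottom). The 4 target genes, *Id1*, *Id2*, *Id3* and *Dlx5*, were chosen from the 7 with a row, and *Id4*, *Msx1* and *Msx2* are not shown. Red is above and blue below the ABW mean, colours end at -3 and 3, and the numbers give the differences; the bone genes reach 6.91 in LBW 3, whereas the largest difference among the BMP genes is 0.94.

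With any single pup left out, 0 of the 7 BMP genes were called, also without LBW 2, where 5.88% of all features were called. The small difference of *Bmp2* depended on single pups, since its log2 fold change of 0.24 became 0.06 without LBW 1, 0.10 without ABW 2, 0.14 without LBW 3 and 0.53 without LBW 2. That of *Bmp6* lay between 0.14 (without LBW 3) and 0.44 (without ABW 3), and that of *Grem1* between -0.20 (without LBW 3) and 0.51 (without LBW 2). LBW 2 was the lowest LBW pup for these 3 genes, so the values without it are higher by construction. *Bmpr1b* stayed between 0.30 and 0.39 and *Bmp4* between -0.25 and -0.14 with any single pup left out. Of the bone genes, 11 were called without LBW 2, 3 without LBW 1, 4 without LBW 3 and 5 without ABW 2.

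**Figure D3:**
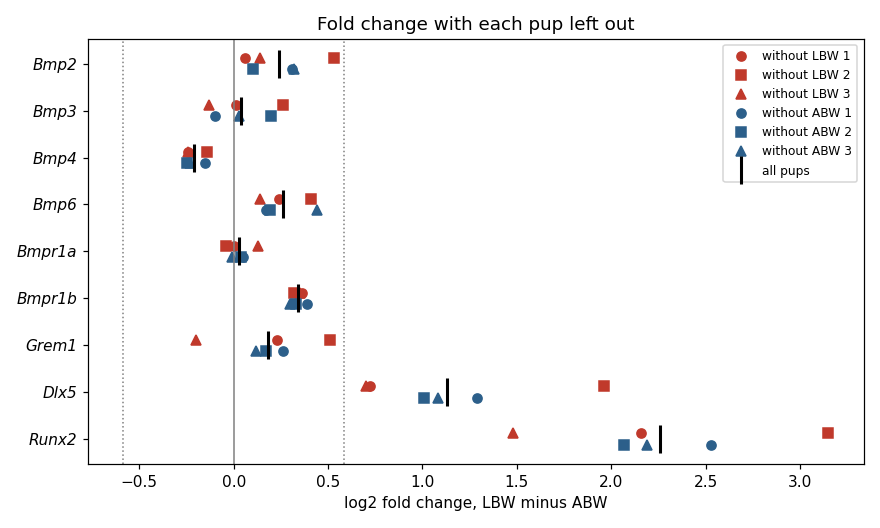
Log2 fold change (LBW minus ABW, horizontal axis) of the 7 BMP genes and, for comparison, of the BMP target *Dlx5* and the osteoblast regulator *Runx2*, with all pups (black bar) and with each pup left out (points). Dotted lines mark a 1.5-fold change; no point of a BMP gene passes them, whereas *Dlx5* reaches 1.96 and *Runx2* 3.15 without LBW 2.

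Other genes of the pathway were read from a list of 54 genes, of which 31 had a row. By limma 0 of the 31 were called, against 4.27% of all features, and 5 had an unadjusted p under 0.05, against 12.4%. By the methods' test 2 had an unadjusted p under 0.05 (*Acvr1* and *Smad5*), against 9.51% of all features. The median log2 fold change was 0.04, beside -0.02 over all features. The 5 by limma were *Acvr1*, *Acvr2b*, *Chrdl1*, *Fst* and *Nbl1*. For 3 of the 31 (*Nbl1*, *Smad4* and *Smad5*) every LBW pup lay above every ABW pup, against 7.27% of all features. For 3 (*Acvr1*, *Chrdl1* and *Msx1*) every LBW pup lay below every ABW pup, against 10.1%. For 20 of the 31 genes, and for 3 of the 7 BMP genes, the 95% interval stayed within 1.5-fold in both directions, which held for 66.6% of all features. Some of the 20 had low signals, such as *Gdf6* with 5.32 to 5.39, beside a lowest value of 4.58 over all rows. For such genes a narrow interval does not show that the RNA was unchanged, as no detection call is given.

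Among the other ligands, 4 of 11 had a row, and their largest log2 fold changes were 0.09 for *Bmp10*, a ligand of the heart, and 0.06 for *Gdf10*. Among the other receptors and co-receptors, 7 of 9 had a row. *Acvr2b*, a type II receptor shared with activins and myostatin, gave signals of 7.22, 7.62 and 7.77 in LBW pups 1, 2 and 3 against 6.93, 7.26 and 7.12 in ABW pups 1, 2 and 3. LBW 1 lay below ABW 2, and the log2 fold change was 0.43 (SE 0.17, limma with adjusted p = 0.377); without LBW 1 it was 0.59 and past the threshold. *Acvr1*, the type I receptor whose mutation causes ectopic bone in fibrodysplasia ossificans progressiva, gave signals of 11.90, 11.96 and 11.92 in LBW pups 1, 2 and 3 against 12.18, 12.30 and 12.07 in ABW pups 1, 2 and 3. Its values did not overlap, with LBW lower, and the log2 fold change was -0.26 (SE 0.09, limma with adjusted p = 0.352). *Bambi*, a pseudoreceptor that blocks signaling, had a log2 fold change of 0.27 (SE 0.24).

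Of the other antagonists and extracellular modulators, 8 of 16 had a row, 4 with higher and 4 with lower means in LBW pups. *Fst*, which encodes follistatin, an inhibitor of activin, myostatin and some BMPs, gave signals of 10.68, 10.72 and 10.29 in LBW pups 1, 2 and 3 against 10.65, 11.23 and 11.40 in ABW pups 1, 2 and 3. ABW 1 was within the LBW values, so that the groups overlapped, and the log2 fold change was -0.53 (SE 0.22, limma with adjusted p = 0.404). Without ABW 1 it was -0.75 and past the threshold. *Chrdl1*, a chordin-like antagonist of Bmp4, gave signals of 12.17, 12.01 and 11.69 in LBW pups 1, 2 and 3 against 12.17, 12.35 and 12.44 in ABW pups 1, 2 and 3, a log2 fold change of -0.37 (SE 0.15, limma with adjusted p = 0.391). LBW 1 and ABW 1 were equal to 2 decimals. *Nbl1*, an antagonist of the Dan family, gave signals of 11.29, 11.39 and 11.10 in LBW pups 1, 2 and 3 against 11.08, 10.64 and 10.88 in ABW pups 1, 2 and 3, and its log2 fold change was 0.40 (SE 0.14, limma with adjusted p = 0.354). The antagonists thus had no common direction.

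**Figure D4:**
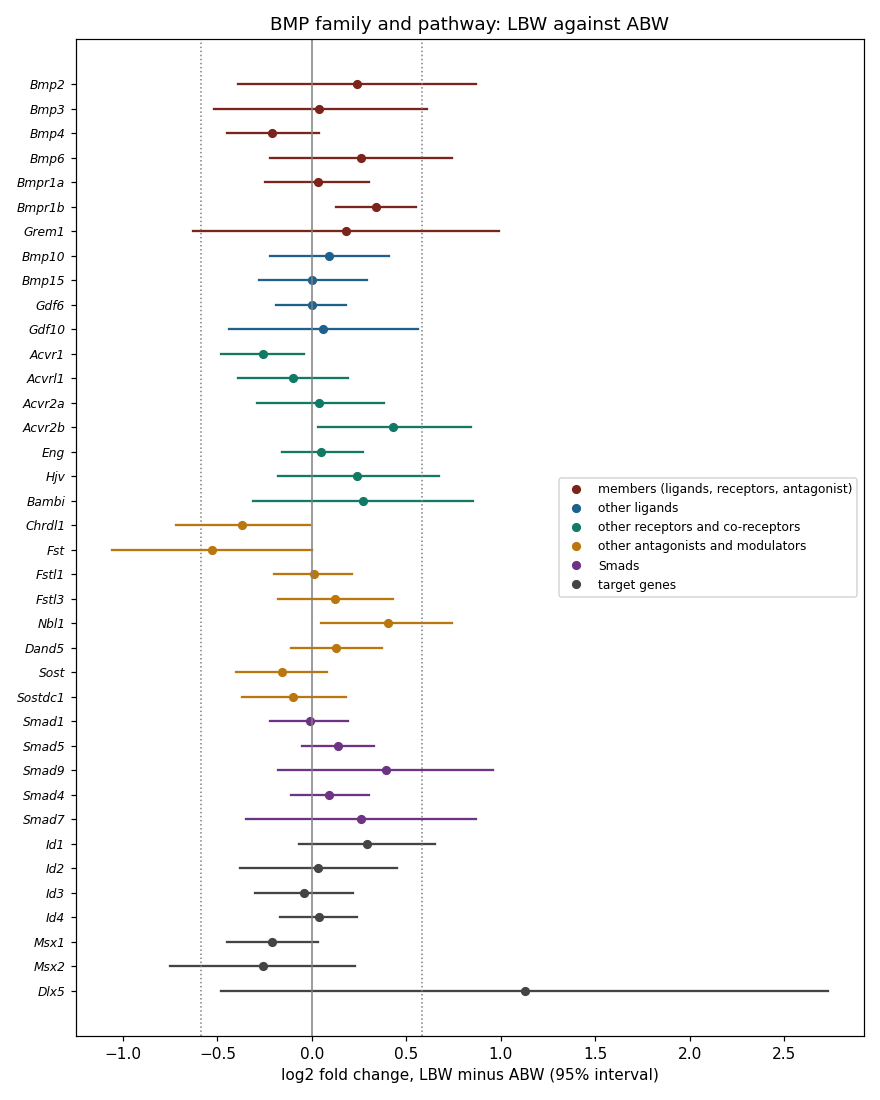
Log2 fold change (LBW minus ABW, horizontal axis) with 95% interval from limma for the 7 BMP genes and 31 other genes of the pathway, coloured by role. Dotted lines mark a 1.5-fold change; apart from *Dlx5* (1.13) all points lie between the lines.

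Of the Smads and their regulators, 5 of 9 had a row and 0 were called. *Smad9* had a log2 fold change of 0.39 (SE 0.24) and *Smad7*, an inhibitory Smad, of 0.26 (SE 0.25), and *Smad9* was past the threshold without ABW 1 (0.64). Of the direct substrates of the BMP receptors, *Smad5* had a log2 fold change of 0.14 (SE 0.08, limma with adjusted p = 0.519) and *Smad1* of -0.01 (SE 0.08). *Smad4*, the common partner, had a log2 fold change of 0.09 (SE 0.08). *Smad5* and *Smad4* were among the 3 of the 31 pathway genes with every LBW pup above every ABW pup, against 7.27% of all features.

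Of the BMP target genes, 7 of 9 had a row, 4 with higher and 3 with lower means in LBW pups, and 0 were called. *Id1*, a widely used readout of BMP signaling, gave signals of 9.14, 9.11 and 8.75 in LBW pups 1, 2 and 3 against 8.50, 8.84 and 8.79 in ABW pups 1, 2 and 3. The groups overlapped through LBW 3, the pup with the highest bone genes, and the log2 fold change was 0.29 (SE 0.15, 95% interval -0.07 to 0.65, adjusted p = 0.486 by limma). *Id2*, *Id3* and *Id4* had log2 fold changes of 0.03, -0.04 and 0.04. *Msx1* and *Msx2*, homeobox genes of the limb and skull, had log2 fold changes of -0.21 (SE 0.10, limma with adjusted p = 0.454) and -0.26 (SE 0.20), and for *Msx1* every LBW pup lay below every ABW pup. *Dlx5*, a homeobox gene that is induced by BMPs and acts in osteoblasts, gave signals of 8.14, 5.66 and 8.18 in LBW pups 1, 2 and 3 against 6.52, 5.98 and 6.11 in ABW pups 1, 2 and 3. LBW 1 and LBW 3 were high, and LBW 2 was the lowest of the 6 pups, as for *Bmp2*, *Bmp3*, *Bmp4* and *Grem1*. The log2 fold change was 1.13 (SE 0.67, limma with adjusted p = 0.544). It lay between 0.70 and 1.29 and was not called with any of the other pups left out, and was 1.96 and past the threshold without LBW 2, the pup with the lowest *Dlx5*. Without LBW 2 the adjusted p of *Dlx5* was 0.0297 by limma, and leaving out its lowest pup raises the difference by construction.

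Markers of other cell types moved between the same pups, and their part in the values above was not tested. The counts called below stand against 2.38% of all features called higher and 1.89% called lower. Relative to the ABW mean, cartilage markers (7 of 14 with a row, 2 called higher) had means of 0.89, 0.04 and 1.58 in LBW pups 1, 2 and 3, with a mean log2 level between 7.96 and 9.50 in LBW and between 7.71 and 8.07 in ABW pups. Osteoclast markers (8 of 12, 2 called higher) were at 1.18, 0.04 and 1.98 relative to the ABW mean in LBW 1, 2 and 3, and tendon markers (2 of 7, 0 called) at 0.59, -0.28 and 0.64. Neutrophil markers (8 of 11, 6 called higher) had means of 2.08, 0.88 and 1.63 in LBW 1, 2 and 3. Of these markers, *Prtn3* and *Lcn2* were not called, with log2 fold changes of -0.07 and 0.12. Whether the signal came from precursors or from mature neutrophils was not tested. Adipocyte markers (9 of 10, 2 called lower) were at -0.48, -0.49 and -1.40, and erythroid precursor markers (4 of 9, 0 called) at -0.57, 0.47 and -1.17. Endothelial markers (4 of 8, 0 called) had means between -0.19 and -0.11 in the LBW pups, and fibroblast markers (3 of 7, 0 called) between -0.20 and -0.01.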

How the data were processed

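Each of the 6 pups had 1 NimbleGen array, with 5 probes per transcript. The log2 values of 26419 rows were deposited by the authors, who normalized the scans in R using their own scripts and Bioconductor packages. The submitters' processing notes name RMA, a method that corrects background, normalizes by quantiles and summarizes probes, without its role. No detection call is given, so the distance of a dim probe from background cannot be given. Arrays carry no count depth, and their number limits the precision.

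Rows were named through the RefSeq gene table of GRCr8 (9747 rows) and 4 more through the tables of the study. Rows of a symbol were averaged, which left 26299 features. These were tested with limma 3.58.1 in R 4.3.3 (2-sided), checked on simulated arrays. The members, the gene lists and the alternatives were chosen with earlier results of these data known. The genes named were the BMP genes with a row, called genes or otherwise the 2 with the largest change of each pathway group, the 4 bone genes with the largest change, and the 3 symbols most like the BMP gene that changed most. *Acvr1*, *Chrdl1*, *Gdf6*, *Alpl*, *Runx2*, *Mepe*, *Sparc*, *Prtn3*, *Lcn2* and the remaining Smads and target genes were named after their values were seen. As alternatives, each pup was left out in turn, the arrays were quantile normalized, median centred or weighted, the dimmest 25% of features were dropped, rows were kept single, replicate numbers entered as blocks, the variance was fitted with a trend or robustly, and the methods' test or a minimum of 2-fold was applied.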

Additional observations from a re-analysis of the deposited data

How the results depend on the processing

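Of the 7 BMP genes, 0 were called under any of the alternatives, as in the main comparison. Without single pups, *Bmp3* ran from -0.13 to 0.26, *Bmpr1a* from -0.04 to 0.13 and *Grem1* from -0.20 to 0.51, so that their direction turned, and *Bmp3* was also -0.06 with array weights. *Bmp2*, *Bmp4*, *Bmp6* and *Bmpr1b* kept their direction under every alternative. Features called (1124) numbered 584 by the methods' test, 335 at a fold change of at least 2, and 798 to 1546 without single pups. Features past the adjusted threshold were 0, or 125 without LBW 2. Bone genes called (8) were 3 by the methods' test and 3 to 11 without single pups, and pathway genes called (0) were 0 to 2 without single pups. The cause was not tested.

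The sample labels do not say that the replicate numbers pair the pups. The correlations of deviations of same-numbered pups were 0.087, 0.104 and 0.055. Pups of different numbers were not compared, so a weak pairing cannot be told from none. A fit blocked on replicate number called 1230 features, 0 BMP genes and 9 bone genes, and 1069 of the features were shared with the fit without it.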
